A study of Saccharomyces cerevisiae with 6 samples.

Results

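The DNA of G1-arrested budding yeast was compared between 3 strains that differ in Orc2, using the 3 G1 libraries of a series of 6. The libraries were those sampled at 0 min with the labels orc2ΔN200 (the first 200 residues of Orc2 removed), orc2-I194E (1 residue of that stretch changed) and WT (full-length Orc2). The other 3 were taken 30 min after release into S phase and serve only as a second look at the same labels. All strains were of the W303-1a background. The same growth protocol is given for every library. Cells grown in YPG at 30 °C were held with α-factor (10 µg/ml, 2 h), moved to YPD with nocodazole (15 µg/ml, 3 h), and arrested again in G1 with α-factor. The protocol places the depletion of orc2-1 in the nocodazole step. By this shared text alone, the allele was in the WT cultures as well as in the mutants. The labels used here do not give the promoter of orc2-1, the place of the ORC2 constructs, the selection markers, or whether each strain was 1 clone. Sodium azide was added at collection.

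In an arrested G1 culture the nuclear genome has not begun to replicate, so a segment present once per haploid genome should give the same coverage as any other. Deletions, duplications and integrated constructs appear as bins that leave this level, and whole chromosomes gained or lost appear as a shift of every bin along them. Mitochondrial DNA and the tandem ribosomal DNA repeats of chromosome XII are present in many copies, and their number can change between cultures of otherwise like strains. A G1 library is also the denominator of an S-phase copy profile, so a difference between G1 libraries enters every profile computed from them.

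Copy number was read from counts per 1-kb bin on sacCer3. The level of a bin is its count relative to the nuclear median of its library, so single-copy DNA stands near 1. The libraries held 3341976 (orc2ΔN200), 3376203 (orc2-I194E) and 3310004 counts (WT), and their nuclear medians were 271, 269 and 259 counts per bin in the same order. There was 1 library per strain, and therefore no test, no p-value and no measure of the spread between cultures. Intervals are 95% intervals for counting error only, and amplified reads are not independent molecules. The S libraries held between 3235720 and 3354757 counts.

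The labels WT and orc2-I194E have to be read with care. At both ORC2 and LEU2 the library labelled orc2-I194E was lower than WT in G1 and higher than WT in S, as given in detail below, and the residue change itself cannot be seen in bin counts. Libraries are therefore called by their labels. With the labels WT and orc2-I194E exchanged in G1, a value given for orc2ΔN200 over orc2-I194E becomes the value for orc2ΔN200 over WT, and the ratio of orc2-I194E to WT changes its sign. The main values are given for all 3 pairs for this reason, and some details for fewer.

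Over most of the genome the 3 arrested strains differed by little more than counting error. Bins with a level of 0.3 to 3 in every G1 library, outside the ribosomal DNA, numbered 11273 of 11579 nuclear bins (97.4%). Their log2 ratios had an SD of 0.142 between orc2ΔN200 and WT, 0.139 between orc2-I194E and WT and 0.140 between orc2ΔN200 and orc2-I194E. Counting alone gives 0.127, 0.128 and 0.126 at these depths. The part beyond counting came to 0.0627, 0.0556 and 0.0611. In each pair 9 of 10 bins lay between about -0.23 and 0.23.

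Few bins left the common level by more than 1.5-fold. Among bins with at least 100 counts in 1 of the 2 libraries, orc2ΔN200 was below WT in 3 of 11269 (0.0266%) and above it in 0 (0%). For orc2-I194E over WT, 3 of 11267 (0.0266%) were lower and 0 (0%) higher. Between orc2ΔN200 and orc2-I194E, 1 of 11273 was higher and 1 lower (0.00887% each, 0.0177% in all). These 8 calls fell on 6 bins, and 4 of the 6 lay at ORC2, at LEU2 or in the bin just before LEU2. The counting interval of the ratio left out 1 in a wider set of 798 bins (7.08%), 759 bins (6.74%) and 773 bins (6.86%), where counting alone would give about 5%. No test for multiple bins was made on these.

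**Figure D1:**
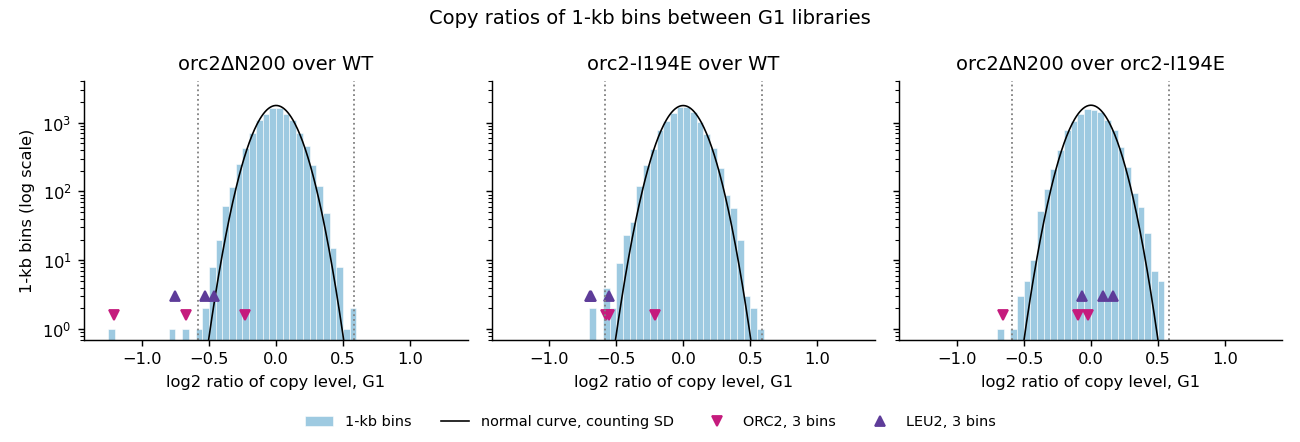
Number of kept 1-kb bins (log scale) at each log2 ratio of copy level, for the 3 pairs of G1 libraries, with the curve that counting error alone gives and dotted lines at 1.5-fold. Most of the bins at ORC2 and LEU2 (triangles, set at arbitrary height) lie at the low edge of both ratios over WT, reaching -1.21, and most lie inside the bulk between orc2ΔN200 and orc2-I194E.

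ORC2, which encodes the second largest subunit of the origin recognition complex, was the locus with the strongest difference. The gene (YBR060C) is read from the Crick strand, at 360652 to 362514 of chromosome II, so its first codons have the highest coordinates. Its first 200 codons take up 361915 to 362514, of which 514 bases fall in the bin 362001 to 363000 and 86 bases in the bin 361001 to 362000. The codon changed in orc2-I194E lies at 361933 to 361935, in the second of these bins.

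In the bin with most of the first codons, orc2ΔN200 had 241 counts, orc2-I194E 376 and WT 532. Their levels were 0.889 (0.781 to 1.01), 1.40 (1.26 to 1.55) and 2.05 (1.88 to 2.24). The orc2ΔN200 library thus stood at single-copy level over this bin, and the other two stood above it with intervals that overlapped neither orc2ΔN200 nor each other. The log2 ratio was -1.21 for orc2ΔN200 over WT (-1.43 to -0.99), -0.65 for orc2ΔN200 over orc2-I194E (-0.89 to -0.42) and -0.56 for orc2-I194E over WT (-0.75 to -0.36).

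The middle bin of ORC2, 361001 to 362000, stood above single copy in all 3 libraries. The levels were 1.66 (1.51 to 1.82) in orc2ΔN200, 1.77 (1.61 to 1.94) in orc2-I194E and 2.63 (2.44 to 2.84) in WT. Here both mutant labels lay close together, with a log2 ratio of -0.095 (-0.28 to 0.094) between them, and both lay below WT, by -0.67 (-0.84 to -0.49) for orc2ΔN200 and -0.57 (-0.75 to -0.40) for orc2-I194E. The last bin, 360001 to 361000, holds the 349 bases at the 3′ end of ORC2 and the start of AKL1, a protein kinase gene. Its levels were 1.47, 1.49 and 1.73 in orc2ΔN200, orc2-I194E and WT.

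The raised level at ORC2 ended with these 3 bins. The other bins within 12 kb had levels of 0.801 to 1.17 in orc2ΔN200, 0.729 to 1.17 in orc2-I194E and 0.803 to 1.147 in WT, as the plot of levels around both genes shows. Expressed as extra sequence over the mean of the flanking 20 kb, the 3 bins held 1.11 ± 0.124 kb more than single copy in orc2ΔN200, 1.62 ± 0.131 kb in orc2-I194E and 3.42 ± 0.158 kb in WT (± counting SE). The other 17 of the 18 genes of origin licensing on the list used, the Orc, Mcm and Cdc6 group with their partners, had no bin past 1.5-fold in any pair, beside 0.0266% of all bins for either ratio to WT and 0.0177% between orc2ΔN200 and orc2-I194E, so this count is near the background. Among them the ratio to WT in orc2ΔN200 ran from -0.15 at ORC5, a subunit gene of the same complex, to 0.18 at TAH11, which encodes the helicase loader Cdt1. For orc2-I194E over WT the highest was 0.14 at MCM5, a helicase subunit gene.

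LEU2, a leucine biosynthesis gene that is widely used as a selection marker, also stood above single copy in all 3 libraries. It lies on the Watson strand of chromosome III at 91324 to 92418. In the bin 91001 to 92000 the counts were 488, 432 and 672, and the levels 1.80 (1.64 to 1.97) in orc2ΔN200, 1.61 (1.46 to 1.76) in orc2-I194E and 2.59 (2.40 to 2.80) in WT. The intervals of the mutant labels overlapped each other and neither reached that of WT. The log2 ratio to WT was -0.53 (-0.70 to -0.36) in orc2ΔN200 and -0.69 (-0.87 to -0.52) in orc2-I194E, and it was 0.17 (-0.025 to 0.36) for orc2ΔN200 over orc2-I194E.

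The second LEU2 bin, which also holds part of NFS1, a cysteine desulfurase gene of iron-sulphur cluster assembly, repeated this order among the labels, with levels of 1.59, 1.49 and 2.19 in orc2ΔN200, orc2-I194E and WT. Together these bins held 1.41 ± 0.113, 1.12 ± 0.108 and 2.77 ± 0.135 kb above single copy (± counting SE). The bin just before LEU2, 90001 to 91000, covers the end of the Ty element gene YCL019W and the leucine tRNA gene SUP53. It was below single copy in every library but followed the same order against WT, with 109 counts in orc2ΔN200, 113 in orc2-I194E and 176 in WT. Its log2 ratios to WT were -0.76 (-1.11 to -0.40) and -0.69 (-1.05 to -0.34). Reads of YCL019W may be shared with other Ty copies, so the level there is uncertain.

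**Figure D2:**
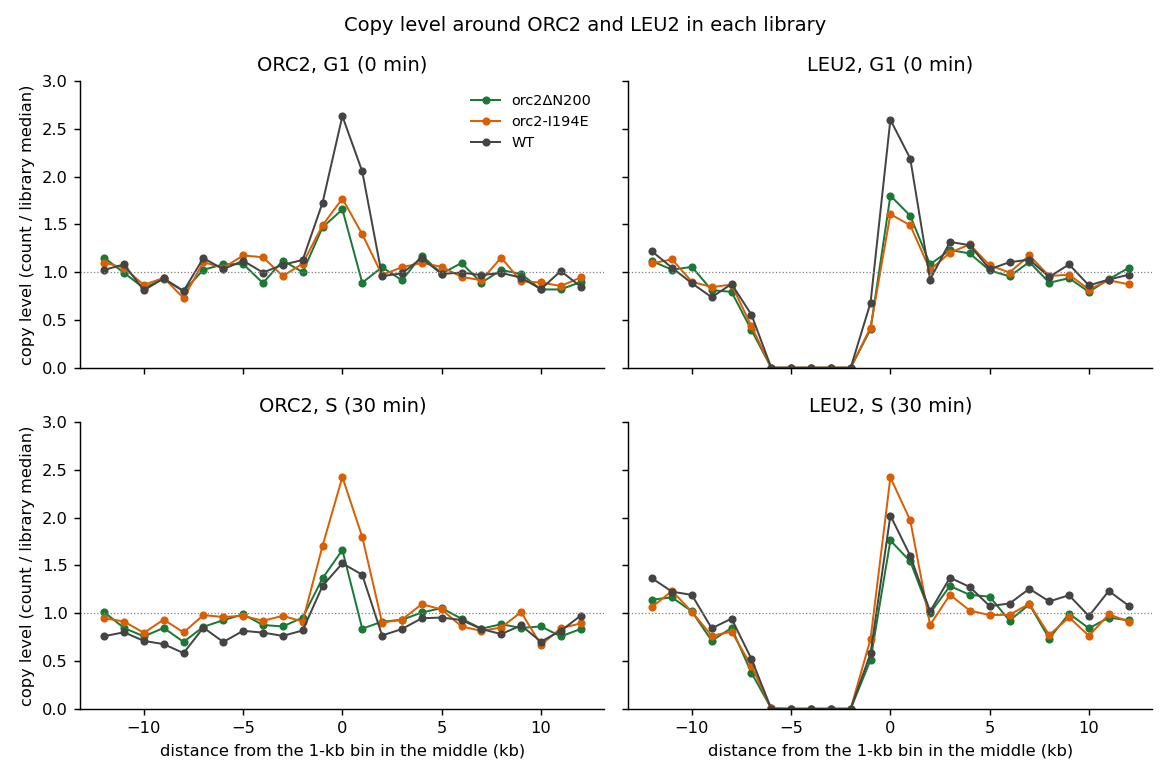
Copy level of 1-kb bins (count over the library's nuclear median) within 12 kb of the middle ORC2 bin and of the first LEU2 bin, with 1 line per strain label, in the G1 libraries above and the S libraries below. In G1 WT is highest at both genes (2.63 and 2.59), in S orc2-I194E is highest (2.43 and 2.42), and orc2ΔN200 stays near single copy over the first codons of ORC2 in both.

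In the S libraries of the same labels the order of WT and orc2-I194E at these genes was the opposite one. The middle ORC2 bin stood at 1.66 in orc2ΔN200, 2.43 in orc2-I194E and 1.52 in WT. The log2 ratio of orc2-I194E over WT there was 0.67 (0.49 to 0.86) in S, against -0.57 in G1. For the first LEU2 bin it was 0.26 (0.090 to 0.43) in S, against -0.69 in G1. All 3 bins of each locus changed sign in this way. The orc2ΔN200 label kept its pattern, with 0.889 in G1 and 0.838 in S over the first codons. In amounts of sequence, the S library labelled orc2-I194E held 3.52 kb above single copy at ORC2 and 2.42 kb at LEU2, and the S library labelled WT held 2.01 and 1.12 kb. The G1 amounts of the opposite label, 3.42 and 2.77 kb for WT and 1.62 and 1.12 kb for orc2-I194E, were nearer to these than those of the same label. Whether labels were exchanged at 1 of the times was not tested, and bin counts alone cannot settle it.

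**Figure D3:**
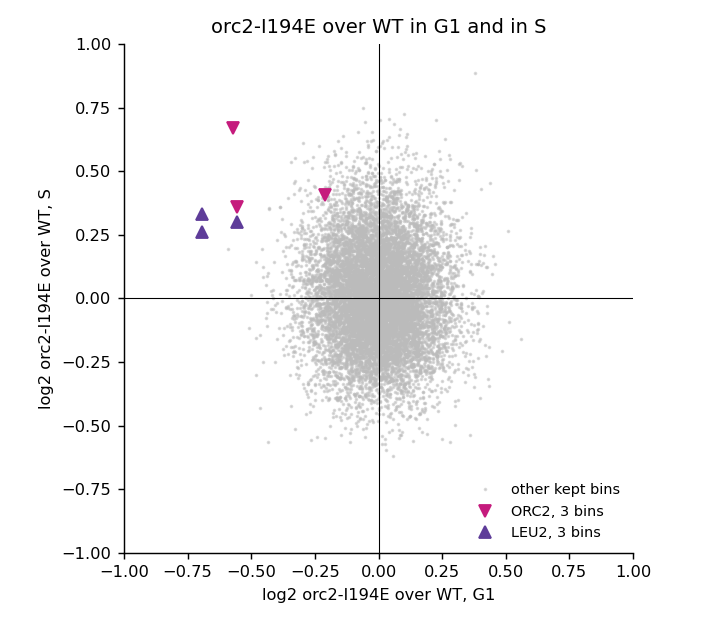
Log2 ratio of orc2-I194E over WT for each kept 1-kb bin, in the G1 libraries on the horizontal axis and in the S libraries on the vertical axis. The 3 bins at ORC2 and the 3 at LEU2 lie in the upper left, negative in G1 (-0.69 to -0.21) and positive in S (0.26 to 0.67).

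In other bins the G1 ratios bore little relation to those of the S libraries. Leaving out the ORC2 and LEU2 bins, Pearson's r across 11267 bins between the G1 ratio and the S ratio of the same pair was 0.041 between orc2ΔN200 and WT, -0.019 between orc2-I194E and WT and 0.068 between orc2ΔN200 and orc2-I194E. Counting error gives an SD of 0.127 of the 0.142 between orc2ΔN200 and WT in G1, and nearly as much in the other pairs. It lowers r for single bins, so these values cannot show that a relation is absent. Neighbouring bins are not independent and share mappability and base composition, and the S ratios also hold differences in replication. On 11-kb sums the same values were -0.0023, -0.047 and 0.12.

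The 2 remaining bins past 1.5-fold had low levels in every library and lay near chromosome ends. One lies at 916001 to 917000 on chromosome XIII by YMR320W, an open reading frame without an assigned function, where orc2ΔN200 had 108 counts, orc2-I194E 91 and WT 132. Its log2 ratio for orc2-I194E over WT was -0.59 (-0.99 to -0.20) in G1 and 0.19 (-0.18 to 0.56) in S. The other lies at 197001 to 198000 on chromosome I by SWH1, a gene for an oxysterol-binding protein homologue, with 106, 69 and 91 counts in the same order. Its log2 ratio for orc2ΔN200 over orc2-I194E was 0.61 (0.16 to 1.07) in G1 and -0.23 (-0.65 to 0.19) in S. Both are bins where the S interval covered 0.

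Longer stretches were sought as runs of at least 3 bins whose 5-kb sums differed by 1.2-fold or more. For orc2ΔN200 over WT, 10 of 11263 sums were lower (0.0888%) and 0 higher (0%), in 2 stretches. These were 359001 to 365000 on chromosome II, which spans ORC2 (-0.44), and 90001 to 94000 on chromosome III, which spans LEU2 (-0.39). For orc2-I194E over WT, 8 of 11259 sums were lower (0.0711%) and 0 higher (0%), again in 2 stretches over ORC2 (-0.39) and LEU2 (-0.49). The stretch over LEU2 was the same 4 bins in both comparisons, which share the WT library. In S, orc2ΔN200 over WT was 0.0065 (-0.090 to 0.10) over its ORC2 stretch and -0.12 (-0.23 to -0.0057) over LEU2. For orc2-I194E over WT the S values were 0.46 (0.35 to 0.56) and 0.20 (0.095 to 0.31). At the 1.2-fold limit in G1, no run outside these loci set either mutant label apart from WT. At 1.1-fold on 11-kb sums, orc2-I194E over WT had 10 stretches and orc2ΔN200 over WT had 2.

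Between orc2ΔN200 and orc2-I194E, 4 of 11262 sums were higher (0.0355%) and 0 lower (0%), and they formed 1 stretch on chromosome I at 190001 to 194000. It lies 30 kb from the last listed bin, over YAT1, a carnitine acetyltransferase gene, YAR035C-A and SWH1. The levels were 0.988 in orc2ΔN200, 0.751 in orc2-I194E and 0.860 in WT, a log2 ratio of 0.40 (0.26 to 0.53) between the mutant labels. In S it was 0.064 (-0.054 to 0.18).

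No library lacked or had gained a whole chromosome. The median log2 ratio of a chromosome lay between -0.010 and 0.024 for orc2ΔN200 over WT, and all 16 were within 0.03 of 0. Ratios with the orc2-I194E library ran wider. For orc2-I194E over WT they went from -0.066 on chromosome III to 0.021 on chromosome IV, and for orc2ΔN200 over orc2-I194E from -0.028 on chromosome IV to 0.079 on chromosome I. In each of these comparisons 13 of 16 were within 0.03, and the exceptions were chromosomes I, III and VI, the shortest.

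The short chromosomes were thus lower by a few percent in the library labelled orc2-I194E than in both others. In summed counts, orc2-I194E over WT was -0.054 on chromosome I (-0.073 to -0.035), -0.059 on III (-0.073 to -0.045) and -0.033 on VI (-0.049 to -0.018), and 0.023 on chromosome IV, the longest (0.017 to 0.030). For orc2ΔN200 over orc2-I194E the values were 0.071 on I (0.052 to 0.090), 0.041 on III (0.027 to 0.056) and 0.058 on VI (0.042 to 0.073). Chromosome IV was at -0.028 (-0.034 to -0.021) in that pair. Longer chromosomes tended to have the higher ratios of orc2-I194E to WT. Over the 16 chromosomes, which share their 2 libraries, Pearson's r between span and median ratio was 0.74 for orc2-I194E over WT and -0.84 for orc2ΔN200 over orc2-I194E (Spearman's rho 0.71 and -0.87), and -0.43 (rho -0.31) for orc2ΔN200 over WT.

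**Figure D4:**
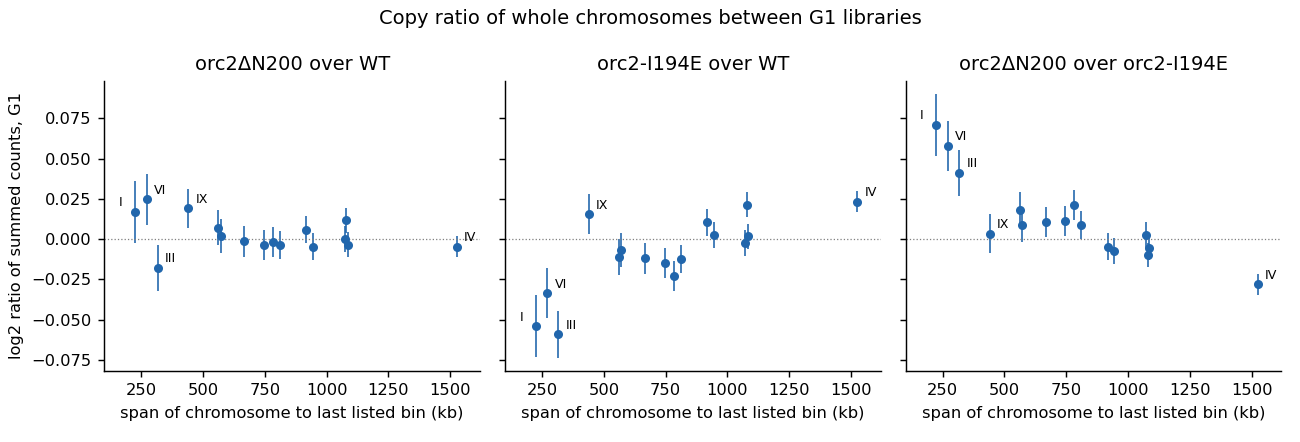
Log2 ratio of summed counts over kept bins of each nuclear chromosome against its span in kb, for the 3 pairs of G1 libraries, with 95% counting intervals (chromosomes I, III, IV, VI and IX are named). Values for orc2ΔN200 over WT stay near 0, while both ratios with orc2-I194E depart from 0 at the short chromosomes, reaching -0.059 on III and 0.071 on I.

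Distance from the chromosome end showed the same library apart. Bins within 100 kb of an end, on the 13 chromosomes other than I, III and VI, had a summed log2 ratio of -0.020 (-0.025 to -0.015) for orc2-I194E over WT, and bins farther in had 0.0078 (0.0051 to 0.010). On chromosomes I, III and VI the values were -0.055 (-0.066 to -0.044) near ends and -0.034 (-0.051 to -0.016) farther in. For orc2ΔN200 over orc2-I194E, the 13 chromosomes had 0.024 (0.019 to 0.030) near ends and -0.0080 (-0.011 to -0.0053) farther in. Chromosomes I, III and VI had 0.063 (0.052 to 0.074) and 0.031 (0.013 to 0.048) in that pair. For orc2ΔN200 over WT all 4 intervals covered 0, although chromosomes III and VI, pooled here, differed in sign. In summed counts of this pair III was at -0.018 (-0.032 to -0.0035) and VI at 0.025 (0.0090 to 0.040). The intervals of IX, at 0.019 (0.0069 to 0.031), and XV, at 0.012 (0.0040 to 0.019), also left out 0. The split by distance and chromosome was chosen after the chromosome values were seen. Base composition was not set beside these ratios, since no genome sequence was used, and its part was not tested. In S, where replication also sets the levels, the medians of orc2-I194E over WT were -0.093 on chromosome I, -0.026 on III and 0.13 on VI, within a range over all chromosomes of -0.12 to 0.13.

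Mitochondrial DNA differed more between the libraries than any nuclear chromosome. Its 86 bins took 7.95% of the counts in orc2ΔN200 (7.92 to 7.98), 9.69% in orc2-I194E (9.66 to 9.72) and 11.2% in WT (11.2 to 11.2). Relative to nuclear DNA the mean level was 11.4, 14.1 and 16.6. The amount in orc2ΔN200 was 0.686 times that in WT (0.682 to 0.689) and 0.807 times that in orc2-I194E (0.803 to 0.811), and the amount in orc2-I194E was 0.850 times that in WT (0.846 to 0.854). All 86 bins lay below 0 in each of these log2 ratios. In S the shares were 9.25%, 9.88% and 9.68%. The S ratios were 0.958 for orc2ΔN200 to WT, 0.930 for orc2ΔN200 to orc2-I194E and 1.03 for orc2-I194E to WT, all closer to 1 than in G1. Whether the G1 order would recur in other cultures was not tested, as each is 1 culture's DNA.

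The difference ran along the whole mitochondrial genome but was not even. For orc2ΔN200 over WT the log2 ratio of a bin ranged from -0.82 in the bin 52001 to 53000, which overlaps no listed gene, to -0.32 in the bin 14001 to 15000 within COX1, a cytochrome oxidase subunit gene. The SD over the 86 bins was 0.113, against 0.0368 from counting. COX1 had levels of 15.9, 19.5 and 22.0 in orc2ΔN200, orc2-I194E and WT, and COB, the cytochrome b gene, had 17.7, 22.4 and 24.8. ATP8, an ATP synthase subunit gene, had 9.37, 14.0 and 16.3. Of the 11 mitochondrial genes listed it had the lowest ratio of orc2ΔN200 to WT (log2 -0.80) and to orc2-I194E (-0.58), while for orc2-I194E over WT the lowest was RPM1 (-0.46). RPM1, the RNA of mitochondrial RNase P, had the lowest levels, 4.02, 4.74 and 6.54. By gene, 3 of 11 were past 1.5-fold lower in orc2ΔN200 than in WT (ATP8, RPM1 and VAR1, a ribosomal protein gene). The median log2 ratio of all 86 mitochondrial bins in this pair was -0.57, so the whole mitochondrial genome lay near this limit. The count therefore does not set these 3 genes apart from the rest of it, and the 0.0266% of nuclear bins is no background for it. The median log2 ratio of the 11 genes was -0.48 between orc2ΔN200 and WT, -0.22 between orc2-I194E and WT and -0.31 between orc2ΔN200 and orc2-I194E.

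**Figure D5:**
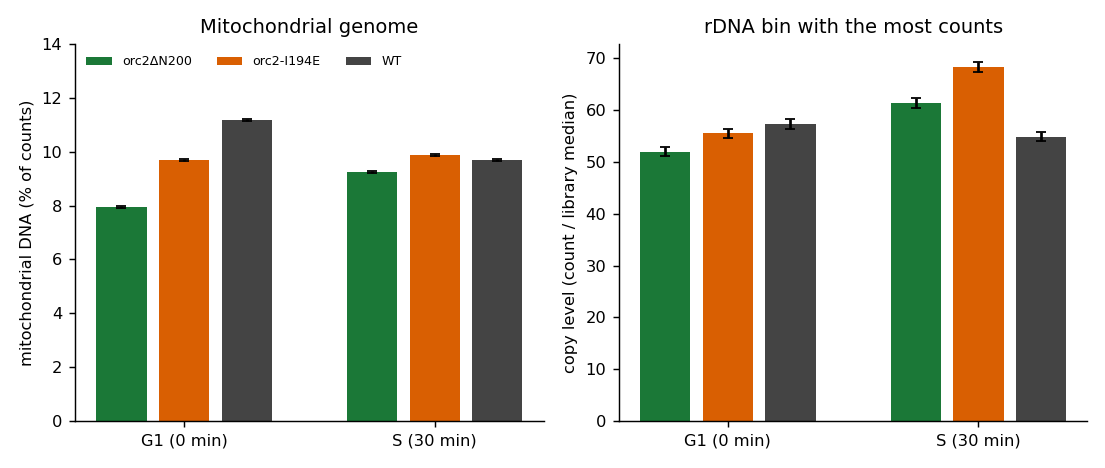
Left, share of counts on mitochondrial DNA in percent; right, copy level of the ribosomal DNA bin with the most counts; bars from left to right are orc2ΔN200, orc2-I194E and WT in G1 and then in S, with 95% counting intervals. Both measures rise in that order in G1 (7.95%, 9.69% and 11.2%; 52.0, 55.5 and 57.4) and not in S.

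Ribosomal DNA followed the same order with a smaller gap. The reference holds a pair of repeats on chromosome XII, from RDN37-1 (451575 to 458432) to RDN5-2 (468813 to 468931), but only 3 of the 18 bins there are listed in the G1 files, so the level stands for the sequence that was counted and is no repeat number. Over the 18 bins the mean level was 3.81 (3.76 to 3.87) in orc2ΔN200, 4.02 (3.96 to 4.08) in orc2-I194E and 4.21 (4.15 to 4.27) in WT. The amount was 0.906 times WT in orc2ΔN200 (0.888 to 0.925) and 0.955 times WT in orc2-I194E (0.936 to 0.974). Between orc2ΔN200 and orc2-I194E it was 0.949 (0.930 to 0.968).

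Most of these counts lay in the bin 460001 to 461000, which holds spacer and the 3′ end of RDN37-2, the precursor of the large ribosomal RNAs, a Crick-strand gene at 460712 to 467569. Its levels were 52.0, 55.5 and 57.4 in orc2ΔN200, orc2-I194E and WT. The bin 459001 to 460000 with RDN5-1, a 5S ribosomal RNA gene, had 16.4, 16.5 and 18.1, and the amount in orc2ΔN200 was 0.992 times that in orc2-I194E there (0.952 to 1.03), a difference within counting error. In S the order was another one, with array means of 4.63, 5.02 and 4.04. The S cultures had been released into replication, so these are not a repeat of the G1 measurement.

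Apart from ORC2 and LEU2, none of the markers and genes often used in yeast constructs was past 1.5-fold between libraries. Such ratios cannot show a change shared by all 3 libraries or one much shorter than a bin. Of 19 such genes, 1 was past 1.5-fold lower in orc2ΔN200 than in WT (ORC2) and 1 in orc2-I194E (LEU2), with 0 between orc2ΔN200 and orc2-I194E and 0 higher in any pair, beside 0.0266% of all bins lower for either ratio to WT. Their median log2 ratios were -0.014, -0.048 and 0.020 for orc2ΔN200 against WT, orc2-I194E against WT and orc2ΔN200 against orc2-I194E, beside 0.0010, -0.0014 and 0.0021 over all kept bins. URA3, the uracil marker, had levels of 1.151, 1.11 and 1.07. HIS3, the histidine marker, had 0.989, 1.00 and 1.04, ADE2, the adenine marker, 0.994, 1.02 and 0.924, and TRP1, the tryptophan marker, 0.959, 0.946 and 1.07. UBR1, the ubiquitin ligase of the N-degron pathway, had 0.954, 1.01 and 1.05. Each of these lies near single copy in all 3 labels.

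The bin between GAL10 and GAL1 stood above its flanks in all 3 libraries. These divergent galactose genes share a promoter that is often used in yeast constructs. The bin was singled out after its values were seen, and how many other bins stand as high was not counted. Its levels were 1.33, 1.41 and 1.53 in orc2ΔN200, orc2-I194E and WT. A bin 3 kb after the first LEU2 bin had 1.23, 1.20 and 1.32 in the same order. Whether the GAL10 to GAL1 bin holds added sequence was not tested. The interval between the genes is 278353 to 279020 on chromosome II, and 648 of its 668 bases fall in the bin 278001 to 279000. Relative to its flanks the bin stood at 1.29 (1.16 to 1.43) in orc2ΔN200, 1.32 (1.19 to 1.46) in orc2-I194E and 1.45 (1.31 to 1.61) in WT. The ratios between strains all had intervals that covered 0, such as -0.20 (-0.41 to 0.011) for orc2ΔN200 over WT. TEF1, a translation elongation factor gene with a near-identical copy elsewhere, had the highest ratio of the 19 genes in each pair, 0.50 for orc2ΔN200 over WT (0.19 to 0.82), at levels of 0.386, 0.309 and 0.272. Its reads may be split between the copies, so these levels are uncertain.

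By the limits used, no listed 1-kb bin was missing from 1 strain alone. Losses much shorter than a bin, or in sequence low in every library, could not be seen in this way. Of 11579 nuclear bins, 0 (0%) had a level under 0.3 in 1 G1 library and of at least 0.7 in another. Sequence at a low level was shared: 276 bins (2.38%) were under 0.3 in all 3 libraries, 28 of them without a count in any of the 3. A further 435 of the 12014 nuclear bins of the grid are listed in none of the 6 libraries and stand outside these counts, among them most of the ribosomal DNA array and the bins over ASP3-1 to ASP3-4. Within 30 kb of an end lay 167 of the 276. Among these listed bins the longest run was 12 bins on chromosome I, 14001 to 26000. The run covers YAL064W, YAL063C-A and part of FLO9, a flocculin gene. Its mean levels were 0.0474, 0.0505 and 0.0479 in orc2ΔN200, orc2-I194E and WT. FLO5, another flocculin gene, lay partly in a run on chromosome VIII at 527001 to 532000, with 0.0421, 0.0565 and 0.0486.

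Members of repeated gene families ranged from no count to about single copy. Families with subtelomeric members were taken by gene symbol, so some genes lie well inside a chromosome, such as HXT10 and COS111. HXT10, a hexose transporter gene, had levels of 1.19, 1.33 and 1.22 in orc2ΔN200, orc2-I194E and WT, and COS4 had 0.186, 0.145 and 0.154. Reads of near-identical copies can be lost or split in counting, so absence and sharing of sequence cannot be told apart there. Of 90 genes of these families 47 had enough counts to compare. Of the 47, 0 were past 1.5-fold in any pair, beside 0.0266% of all bins for either mutant label against WT. The 43 with too few counts included all listed YRF1 genes, so the count does not stand for subtelomeric DNA as a whole. The mating-type genes MATALPHA1 and MATALPHA2 and the asparaginase genes ASP3-1 to ASP3-4 had 0 counts in all 3 libraries. HMRA1, at the silent mating cassette, had levels of 0.921, 1.04 and 0.985. Of the tandem genes CUP1-2, a metallothionein gene, had 0.734, 0.695 and 0.707, and ENA1, a sodium pump gene, 0.147, 0.151 and 0.171. Of the 19 genes on the tandem list 13 had too few counts to compare. None of the 6 measured was past 1.5-fold in any pair, and these included RDN37-2 and RDN5-1, whose bins are described above.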

How the data were processed

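Genomic DNA of each strain was sequenced on a DNBseq platform, per the labels' protocols. The deposited files give whole-number counts per 1-kb bin, and bins of 0 are left out. The build is sacCer3, and the tools named, without their roles, are SAMtools 1.18, bedtools 2.31.0, R 4.3.0, Bowtie2 2.5.3 and Picard 2.27.5, per the submitters' processing notes. Filters, the handling of duplicates and the counted unit (read or fragment) are not given in the sources used here.

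From the counts the authors deposited, levels and ratios were computed with pandas 2.3.3, numpy 2.4.6 and SciPy 1.17.1 in Python 3.11.15, and plotted with matplotlib 3.10.9. An unlisted bin counted as 0, and the nuclear median was taken over 11579 bins listed in any of the 6 libraries. Intervals are exact Poisson for levels and exact conditional binomial for ratios and shares, at 95%. Ends were taken at the first base and the last listed bin. Genes came from a RefSeq gene table of R64, the assembly of sacCer3 (6477 genes), which pairs all listed symbols with positions. No sequence is printed, as no genome was used. The steps were tested on simulated data.

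The loci and gene lists were chosen with earlier results of these data known. Named are the genes at the 5 largest bins past the fold per direction and pair, at the 3 longest stretches, and ORC2 and LEU2, plus examples of each list. Alternatives were another scaling, fold limits, minimum counts, bin widths, filters, stretch rules, and exchanged labels of WT and orc2-I194E in G1.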

Additional observations from a re-analysis of the deposited data

Results flagged for a closer look

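The ratio of orc2-I194E to WT differed in sign between the G1 and the S libraries at every bin of ORC2 and LEU2. The difference itself was not tested, as there is 1 library per label and time. At ORC2, the bin that starts at 360001 had a log2 ratio of -0.21 in G1 and 0.41 in S. The middle bin, from 361001, had -0.57 and 0.67, and the bin with the first codons, from 362001, had -0.56 and 0.36. At LEU2, the bin before the gene, from 90001, had -0.69 in G1 and 0.33 in S, the first bin of the gene, from 91001, had -0.69 and 0.26, and the next, from 92001, had -0.55 and 0.30.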

How the results depend on the processing

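For 28 values, 107 alternatives were computed. Of these, 62 kept the value within its interval or changed it by at most 1.5 times, including all 24 that scaled by total nuclear count. Another 39 moved it more and 6 reversed it, all 6 by exchanging the G1 labels of WT and orc2-I194E. The interval of a chromosome span was taken from chromosome I. Some of the 62 could not differ by construction. Scaling cannot change a span of chromosome medians, and every mitochondrial bin had counts in each library. The exchange leaves the span, the SD and the numbers of bins and stretches of orc2-I194E over WT as they were. In the order orc2ΔN200 over WT, orc2-I194E over WT and orc2ΔN200 over orc2-I194E, bins past the limit numbered 278, 256 and 274 at the lowest fold limit tried (5/4), 1, 0 and 0 at 2-fold, 11, 8 and 14 with a minimum of 30 counts, and 1, 1 and 1 with 2-kb bins. A minimum of 200 counts left 1 bin for each pair with orc2-I194E, and kept bins alone gave 1 for orc2ΔN200 over orc2-I194E. Stretches numbered 1, 0 and 0 with at least 5 bins. With 11-kb sums at 1.1-fold there were 10 for orc2-I194E over WT and 9 for orc2ΔN200 over orc2-I194E, and 4 for the last pair on 5-kb sums at a limit midway between 1.1 and 1.2. The SD of bin ratios was 0.0655, 0.0659 and 0.0689 on 5-kb sums. With the G1 labels exchanged, stretches became 1 for orc2ΔN200 over WT and 2 for orc2ΔN200 over orc2-I194E, and the span of chromosome medians 0.11 and 0.034 for these pairs. In the order of all 3 pairs, log2 ratios then became -0.31, 0.23 and -0.54 for mitochondrial DNA, -0.076, 0.066 and -0.14 for ribosomal DNA, -0.095, 0.57 and -0.67 for the middle ORC2 bin, -0.65, 0.56 and -1.21 for its first codons, and 0.17, 0.69 and -0.53 for the first LEU2 bin. The 5S ribosomal DNA bin alone gave -0.13 for orc2-I194E over WT and -0.011 for orc2ΔN200 over orc2-I194E. Beyond the construction of each alternative, the cause was not tested. Correction for base composition was not run, as no genome was used. No paired analysis was possible because each group has 1 library. At a median of 259 to 271 counts per bin, counting alone gives an SD near 0.127 for a bin's log2 ratio, and smaller changes of single bins cannot be seen.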
